A study of Mus musculus with 22 samples.

Results

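The genes described here are 10 immunoglobulin and lymphocyte genes of mouse choroid plexus (ChP), the epithelial tissue in the brain ventricles that secretes cerebrospinal fluid. Ighm, Ighg1, Ighg2b, Ighg2c and Igkc encode constant regions of antibodies, and Cd79a, Cd79b, Cd3e, Cd3g and Cd6 encode surface proteins of lymphocytes. All 10 have counts among the 33964 genes of the files. They were chosen from earlier results for Cre-Tat against vehicle, so their values in that contrast and between the vehicle groups are given as a description, with no p-value.

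RNA was sequenced from 14 pools of ChP, with 2 pools (A and B) in each of 7 groups. In the conditional model (strain label S129), Otx2 lox/lox mice aged 3 months received Cre-Tat, a cell-permeable recombinase, or vehicle into the lateral ventricles only. Lateral ventricle (LV) and 4th ventricle (4V) ChP were taken separately after 15 days, with 5 mice in a Cre-Tat pool and 4 mice in a vehicle pool. Every mouse of this model carried the lox alleles and was injected. The constitutive model (strain label B6D2) gave 4V ChP of wildtype mice aged 3 months, 5 to a pool. Mice labelled Otx2 (+/-), which the methods name Otx2+/GFP, were also aged 3 months, 4 to a pool. For its mice labelled Otx2 (+/AA), neither age nor pool size is given. The models differ in strain label and sequencing run, and these cannot be told apart. Since a pool mixes mice, a high value does not show how many of its mice were high.

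Totals over all transcripts were 22750019 to 50088408 counts per pool. Otx2, the targeted gene, had 8071 (A) and 9442 (B) counts in the vehicle-labelled LV pools and 30776 and 22336 in the Cre-Tat-labelled ones. The 4V values were 5205 and 4258 under the vehicle label and 22151 and 24267 under the Cre-Tat label. In the constitutive model there were 6923 and 5390 counts in wildtype, 20351 and 17240 in Otx2+/GFP and 7232 and 6836 in Otx2+/AA pools. Counted over its whole transcript, in which the deleted exon cannot be counted apart, Otx2 was thus higher where the label says knockdown, and every direction below is between labels. The 7 ChP epithelium markers were present in every pool. Under the knockdown label, 3 of 7 were called lower in LV and 7 of 7 in 4V of the conditional model. In Otx2+/GFP pools 2 of 7 were called lower (Ttr and Folr1). The LV calls were lost when either vehicle pool was left out, and some 4V calls without Cre-Tat pool A or either vehicle pool. Those in Otx2+/GFP pools were lost without wildtype pool A.

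Antibodies are built from heavy and light chains, each with a variable region assembled from gene segments and a constant region that sets the class. B cells first make the mu heavy chain (IgM), can switch to gamma chains (IgG) after activation, and may become plasma cells, which secrete antibody and hold very large amounts of immunoglobulin mRNA. T cells carry the CD3 complex and CD6. The ChP stroma lies outside the blood-brain barrier and houses immune cells, of which macrophages are the best known.

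The constant genes of IgG resemble each other, and the hinge exon, which joins the arms of the antibody to its stem, is shown because the isotypes told apart below differ there. The hinge exons (exon 2 of each transcript, GRCm38, minus strand, from GENCODE vM21) are given 5′ to 3′. Their in-frame cysteine codons, whose residues can form bonds between antibody chains, are in capitals. The exons lie at chr12:113329844-113329882 in Ighg1, chr12:113307261-113307326 in Ighg2b and chr12:113288263-113288325 in Ighg2c.
Ighg1: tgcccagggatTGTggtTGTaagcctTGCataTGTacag
Ighg2b: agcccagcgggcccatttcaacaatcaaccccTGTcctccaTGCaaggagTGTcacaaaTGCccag
Ighg2c: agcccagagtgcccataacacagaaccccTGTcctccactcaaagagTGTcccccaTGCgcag
These exons are 39, 66 and 63 bases long and hold 4, 4 and 3 cysteine codons. The next sequence is the longest stretch shared by Ighg2b and Ighg2c, 78 bases in exon 3 of Ighg2b at chr12:113306869-113306946, and is shown because reads from it cannot be assigned to one gene.
Ighg2b and Ighg2c: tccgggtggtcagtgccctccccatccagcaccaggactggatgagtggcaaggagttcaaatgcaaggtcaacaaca
Reads were 50 bases long. Of all 50-base windows, 5.26% of those of Ighg2b and 6.01% of those of Ighg2c occur in the other gene too, so these counts are uncertain to that extent, while 0% of those of Ighm, Ighg1 and Igkc occur in another gene. The Cd3e transcript overlaps Gm48719 on the other strand and its reads may include those of that gene, since the counting strand is not given in the sources used here.

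The gamma genes, neighbours on chromosome 12, spanned the widest range. Ighg1 (ENSMUSG00000076614, chr12:113325240-113330523, minus strand), the IgG1 constant gene, had 6 (A) and 115 (B) counts in LV under the vehicle label and 2965 and 305 under the Cre-Tat label. In 4V the vehicle-labelled pools held 2 and 0 counts and the Cre-Tat-labelled pools 1087 and 174. Neither ventricle showed overlap between labels. The log2 fold change in LV was 4.49 (SE 0.87). In 4V, where vehicle held 2 counts in all, the depth-scaled ratio of summed counts was 402 (exact 95% interval 111 to 3320, counting error only). Pools of one label differed widely too, since Cre-Tat pool A exceeded pool B 8.51 times in LV and 6.73 times in 4V (ratio of CPM, counts scaled to library size). The LV log2 fold change was 2.25 without Cre-Tat pool A and 7.83 without vehicle pool B. In 4V the fitted value of 8.56 fell to 6.59 without Cre-Tat pool A and reached 12.1 without vehicle pool A, where vehicle holds 0 counts and the fit gives no size.

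Ighg2b (chr12:113302965-113307933, minus strand), the IgG2b constant gene, had 1 and 83 counts in vehicle-labelled LV and 2062 and 96 in Cre-Tat-labelled LV. Vehicle pool B and Cre-Tat pool B thus lay close together. The 4V counts were 0 and 1 against 185 and 3, nearly all from Cre-Tat pool A. Ighg2c (chr12:113285325-113288932, minus strand), the IgG2c constant gene, had 3 and 34 counts against 708 and 42 in LV and 0 and 1 against 184 and 16 in 4V. Labels did not overlap for either gene in either ventricle. The LV log2 fold changes were 4.40 (SE 1.04) for Ighg2b and 4.07 (SE 0.93) for Ighg2c, while Cre-Tat pool A exceeded pool B 18.8 and 14.8 times there. Without Cre-Tat pool A they were 1.11 and 1.10, and without vehicle pool B 9.68 and 6.68. For Ighg2c in 4V the fitted value of 6.78 was 4.02 without Cre-Tat pool A, and 9.53 without vehicle pool B, where vehicle holds 0 counts.

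Igkc (ENSMUSG00000076609, chr6:70726435-70726966, plus strand), the kappa light chain constant gene, had 91 and 206 counts in vehicle-labelled LV and 4244 and 459 in Cre-Tat-labelled LV. The 4V counts were 31 and 44 against 1183 and 245. Both Cre-Tat pools were above both vehicle pools in each ventricle, and pool A was again the higher Cre-Tat pool. The log2 fold changes were 3.72 (SE 0.67) in LV and 3.62 (SE 0.54) in 4V, and 1.55 and 1.97 without Cre-Tat pool A of the same ventricle. Per kilobase of transcript, the Igkc level was 1.51 to 2.26 times the summed level of the 4 heavy chain genes in Cre-Tat pools and 1.61 times in LV vehicle pool B. The other 3 vehicle pools, with few gamma counts, had ratios of 6.33 to 6.81. These rest on only 37 heavy chain counts in LV pool A and 12 and 18 in the 4V pools. In the constitutive pools, where gamma counts were few as well, the ratios were 0.21 to 2.72.

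Ighm (ENSMUSG00000076617, chr12:113418558-113422730, minus strand), the mu constant gene, had 27 and 47 counts in vehicle-labelled LV and 116 and 162 in Cre-Tat-labelled LV. In 4V it had 10 and 16 against 81 and 39. The labels did not overlap, with log2 fold changes of 1.74 (SE 0.34) in LV and 1.55 (SE 0.46) in 4V, the latter 0.85 without Cre-Tat pool A. In LV pool A was the lower Cre-Tat pool for Ighm, whereas it was the higher one for each gamma gene.

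**Figure D1:**
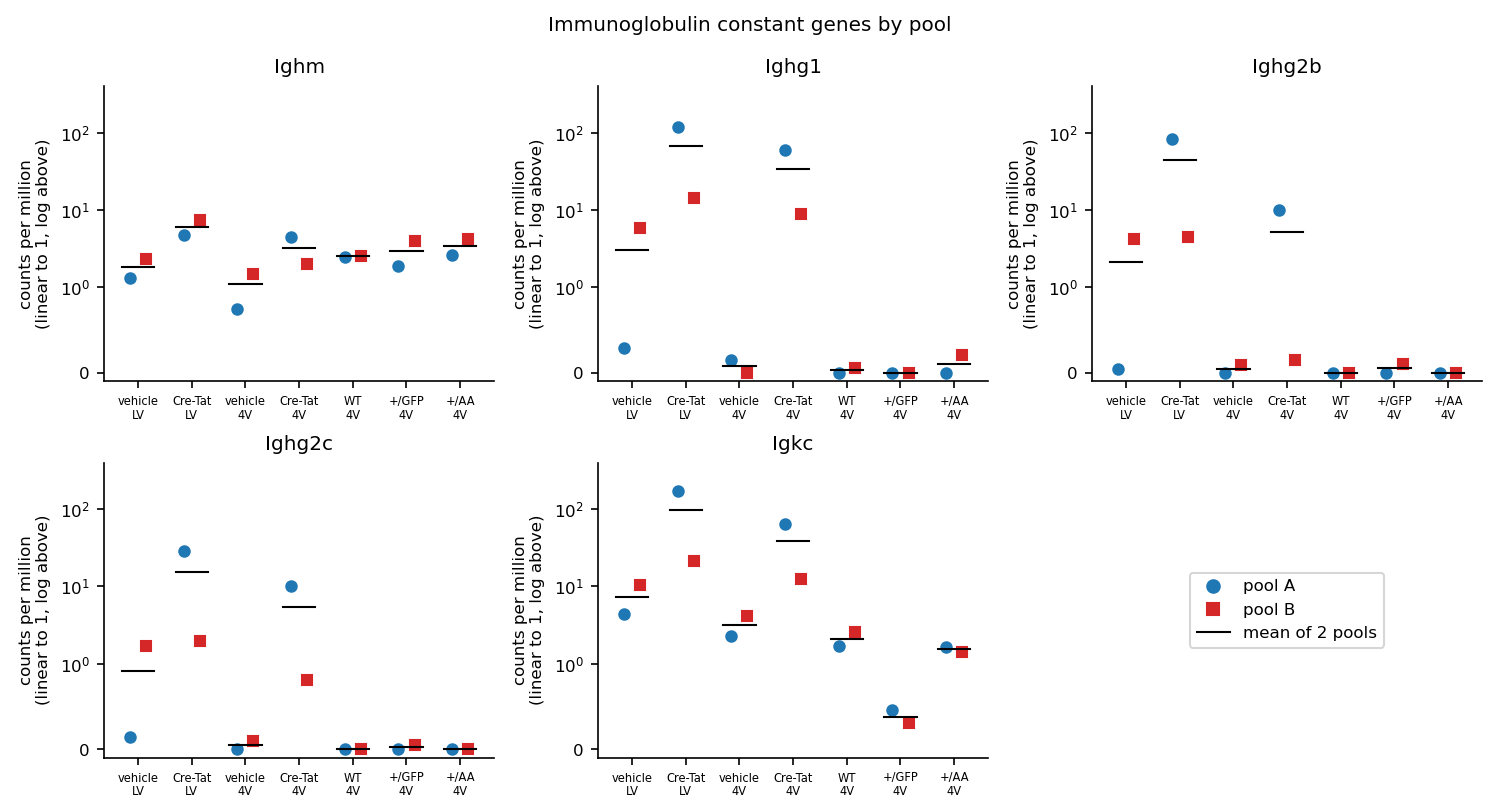
CPM of the 5 immunoglobulin constant genes in each pool, on an axis that is linear to 1 and logarithmic above, with pool A as circles, pool B as squares and the mean of the 2 pools as a line. Igkc is highest in Cre-Tat LV pool A (170 CPM, against 21.1 in pool B), and the gamma genes stay at or near 0 in the constitutive model.

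The make-up of the heavy chain counts differed between pools. Gamma genes held 98.0% (exact 95% interval 97.6% to 98.4%) of heavy chain counts in Cre-Tat LV pool A and 73.2% (69.5% to 76.7%) in pool B. In Cre-Tat 4V pools A and B they held 94.7% (93.5% to 95.8%) and 83.2% (77.7% to 87.8%). LV vehicle pool B, at 83.2% (78.2% to 87.4%), was near these, whereas LV vehicle pool A had 27.0% (13.8% to 44.1%). The 4V vehicle pools had 16.7% (2.09% to 48.4%) and 11.1% (1.38% to 34.7%) of only 12 and 18 counts. The intervals are Clopper-Pearson intervals of 1 pool and cover counting error only.

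Among the isotypes, Ighg1 held 50.7% and 50.4% of heavy chain counts in Cre-Tat LV pools A and B, and 70.7% and 75.0% in the 4V pools. Ighg2b held 35.2% in LV pool A and 15.9% in LV pool B. Its share in 4V was lower, with an interval of 10.5% to 13.8% in pool A and a share of 1.29% in pool B.

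**Figure D2:**
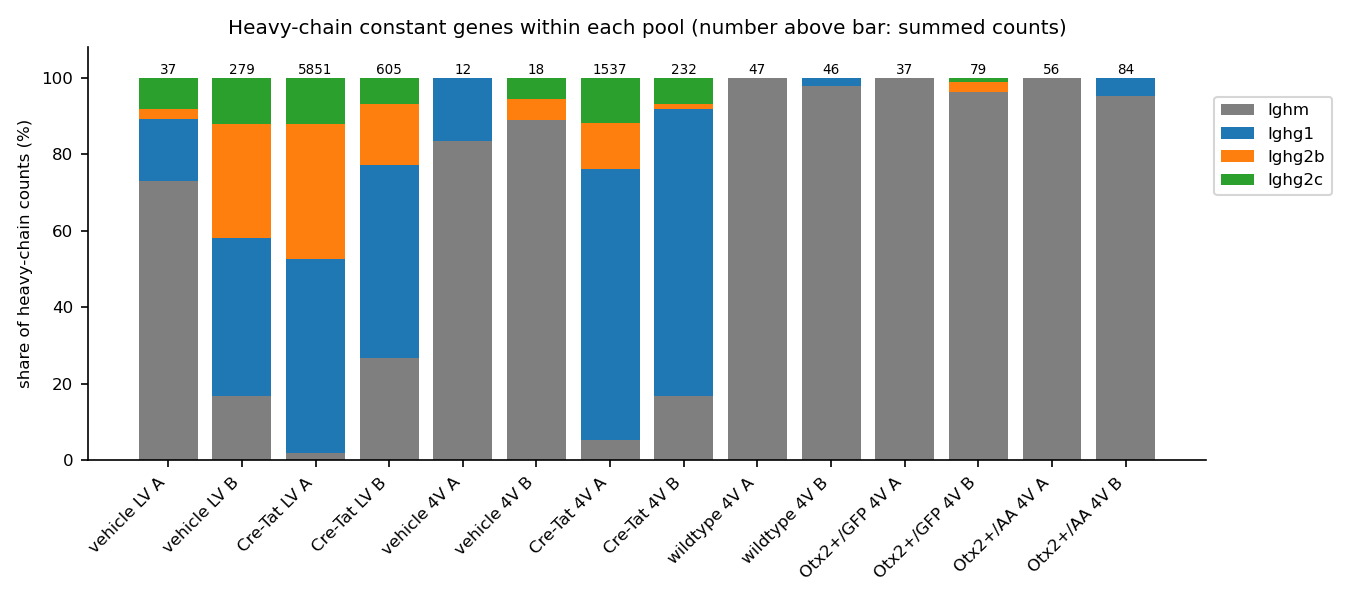
Share of each heavy chain constant gene in the heavy chain counts of a pool, in percent, with the summed counts above each bar. Gamma genes fill most of the bar in the 4 Cre-Tat pools and in LV vehicle pool B, and Ighm fills 95.2% to 100% of it in the 6 constitutive pools.

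B cell receptor genes had few counts. Cd79a (chr7:24897381-24902197, plus strand), a signalling chain of that receptor, had 0 and 4 counts in vehicle-labelled LV, 4 and 0 in Cre-Tat-labelled LV, and at most 1 count in any other pool. A difference in Cd79a was not detectable at this depth. Cd79b (chr11:106311341-106314762, minus strand), its partner chain, had 0 and 2 counts against 18 and 8 in LV, a depth-scaled ratio of 11.4 (exact interval 2.87 to 99.5). In 4V it had 3 and 0 against 7 and 4, with a ratio of 2.34 (0.617 to 13.0), and the labels overlapped in CPM.

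T cell genes were low as well. Cd3g (chr9:44969572-44980431, minus strand), a CD3 chain of the T cell receptor complex, had 5 and 3 counts in vehicle-labelled LV and 60 and 31 in Cre-Tat-labelled LV, a log2 fold change of 3.27 (SE 0.61). In 4V it had 2 and 4 against 18 and 21, a log2 fold change of 2.01 (SE 0.65). Its labels did not overlap in either ventricle.

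Cd6 (chr19:10789341-10830058, minus strand), a receptor that binds ALCAM, had 0 counts in both vehicle LV pools and 18 and 11 in Cre-Tat-labelled LV, at least 4.20-fold higher against a floor of 3 counts per library. In 4V it had 0 in both vehicle pools and 2 and 0 under the Cre-Tat label, at or under that floor. Cd3e (chr9:44998740-45009627, minus strand), another CD3 chain, had 0 and 1 counts against 5 and 1 in LV and 0 and 1 against 6 and 3 in 4V. Its depth-scaled ratios were 5.28 (exact interval 0.641 to 243) and 5.73 (0.794 to 251), and both intervals include no difference.

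**Figure D3:**
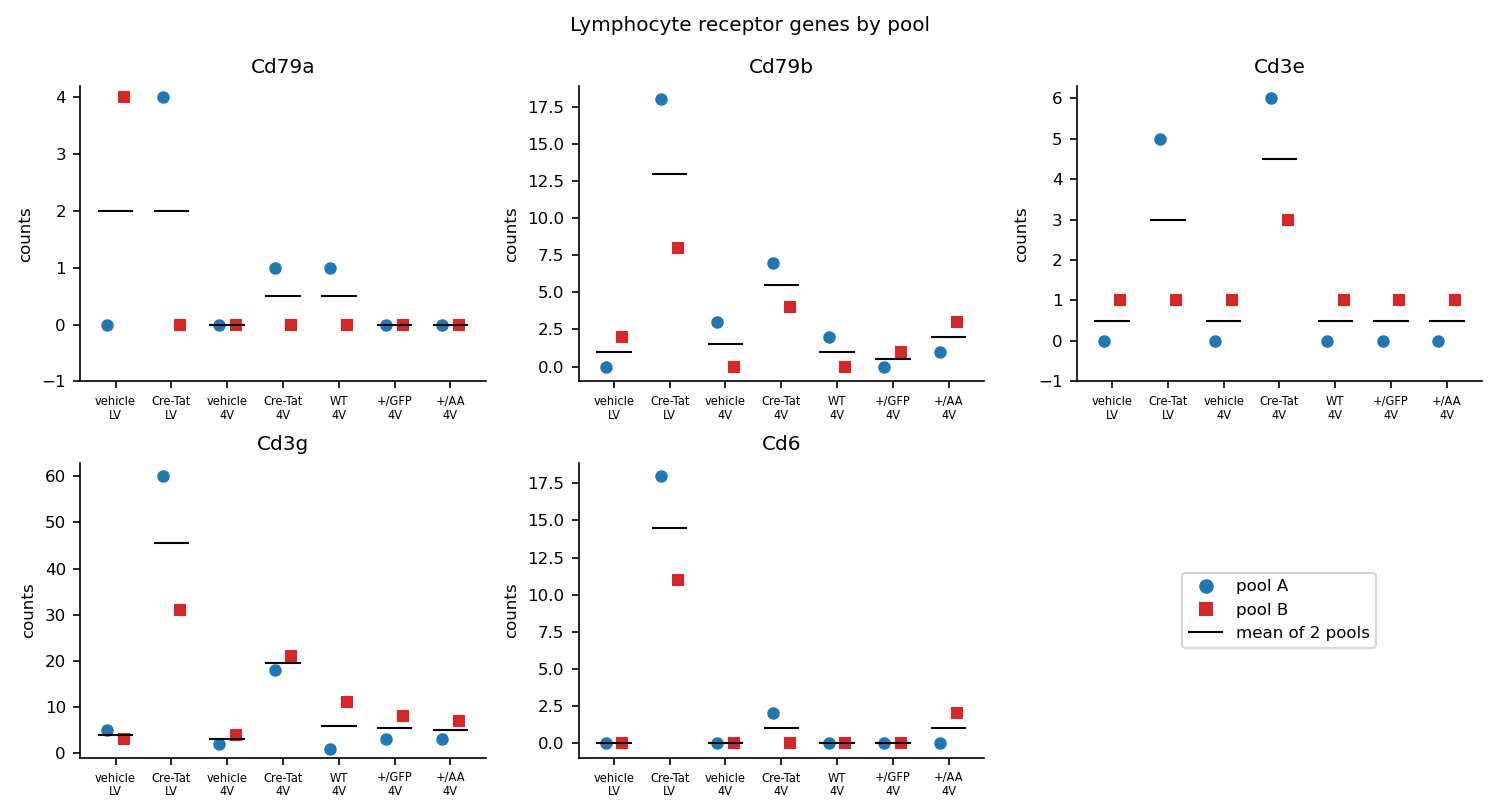
Counts of the 5 lymphocyte genes in each pool, with pool A as circles, pool B as squares and the mean of the 2 pools as a line. Cd3g reaches 60 and Cd6 18 counts in Cre-Tat LV pool A, and Cd79a stays at 4 or fewer in every pool.

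Of the 10 members, 7 passed the low-count filter in LV and all 7 of these were called higher under the Cre-Tat label by edgeR's quasi-likelihood test, where 2.21% of all genes tested were called higher. In 4V 5 passed and 4 were called, all but Cd3g, where 5.7% of all genes were called higher. Because the members were chosen from this contrast, nothing is read from these counts. Leaving out Cre-Tat LV pool A left 2 called in LV (Ighm and Igkc), and leaving out Cre-Tat 4V pool A left 2 in 4V (Ighg1 and Igkc). DESeq2 called 2 in LV (Ighm and Cd3g) and 3 in 4V (Ighg1, Ighg2c and Igkc). Between the vehicle groups of LV and 4V, where 7.49% of all genes were called, Ighm and Igkc passed the filter and neither was called, with 1 at an unadjusted p under 0.05 in edgeR and 0 called by DESeq2. These pools may share mice between ventricles, and 1 member, Igkc, was called with the pool letter as a block.

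Variable, diversity and joining segments have rows of their own, 215 in all, of which 204 are V segments. V counts summed to 2155 and 260 in Cre-Tat LV pools A and B, 688 and 91 in Cre-Tat 4V, 1 and 90 in vehicle LV and 20 and 1 in vehicle 4V. The constitutive pools had 1 to 9. LV vehicle pool B, which was high in gamma counts, thus also had V counts near those of Cre-Tat 4V pool B. V and constant regions lie on the same mRNA, so the segments are not independent of the members and no test of them is given.

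The leading V segments differed between pools. Igkv11-106 led in Cre-Tat LV pool A with 300 counts, 13.9% of V counts (exact 95% interval 12.5% to 15.5%), and had 1 count in LV pool B. There Igkv1-99 and Igkv1-88 led with 53 and 49 counts, and both had 0 counts in every other pool. In Cre-Tat 4V pool A, Igkv8-30 held 34.2% (30.6% to 37.8%) with 235 counts, and it had 0 counts in 4V pool B, where Igkv10-96 led with 17.

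Segments with 10 or more counts numbered 37 in Cre-Tat LV pool A and 15 in Cre-Tat 4V pool A, and 11 were in both (29.7% and 73.3% of each). LV pools A and B shared 5 (13.5% of the 37 and 71.4% of the 7 in B). Cre-Tat LV pool B and 4V pool A, of different letters, also shared 5 (71.4% and 33.3% of each). LV pool B and 4V pool B, of one letter, had 7 and 2 such segments and shared 0. The 4V pools shared 0, and LV pool A and 4V pool B shared 1. Of 50-base windows, 19.1% of those of Igkv8-30 and 32.6% of those of Igkv10-96 occur in other V segments, so their counts may include reads of those. Fewer V counts leave fewer segments to share. The methods describe LV and 4V ChP of the injected mice, and pools of one label and letter may come from the same mice, which the sources used here do not state.

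**Figure D4:**
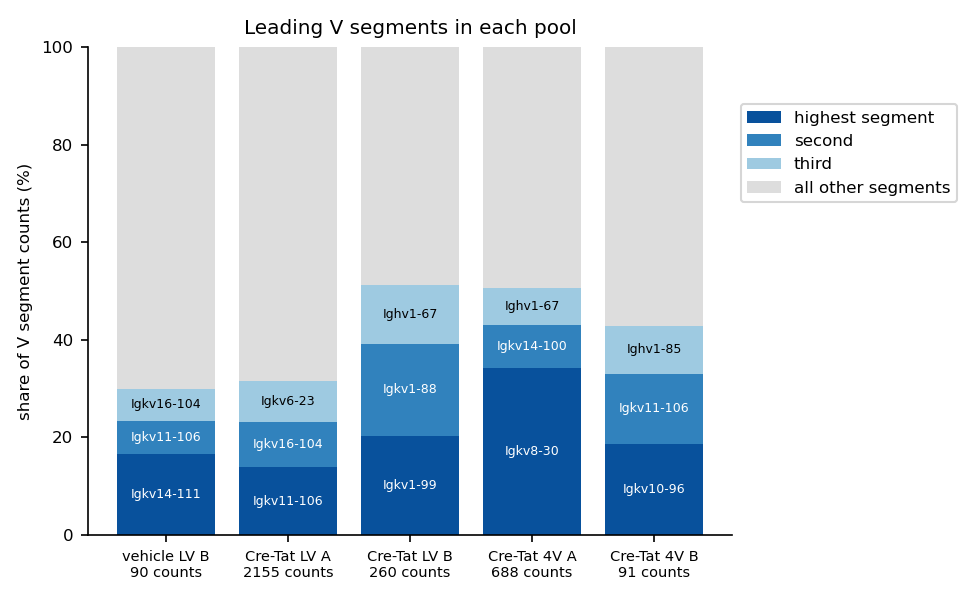
Share of the 3 V segments with the most counts in the V counts of a pool, in percent, for the 5 pools with 90 or more V counts. The leading segment differs from pool to pool and holds 13.9% to 34.2%.

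Jchain, the chain that joins IgM and IgA units and is made by antibody-secreting cells, was highest in the same pool as the gamma genes. It had 5 and 65 counts in vehicle-labelled LV and 1478 and 99 in Cre-Tat-labelled LV (log2 fold change 4.22, SE 0.92, higher in both pools). Vehicle LV pool A was under the filter's cutoff, so Jchain passed only with the Cre-Tat pools counted. Its LV value is therefore a description with no p-value. Jchain was called there by edgeR, but not without Cre-Tat LV pool A and not by DESeq2. In 4V Jchain rose from 1 and 3 to 334 and 90 counts (6.04, SE 0.76). It passed the filter there through the Cre-Tat pools alone, so this value is given as a description with no p-value.

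Of the 10 plasma cell genes listed, 1 of 6 tested was higher in LV and 2 of 5 in 4V. The second call in 4V was Tnfrsf13b, a receptor of B cell survival factors (3 and 2 against 27 and 14 counts). Since Tnfrsf13b too passed the filter through the Cre-Tat pools alone, its call is given with no p-value. That call was lost without Cre-Tat 4V pool A and without either vehicle 4V pool. The list's median log2 fold change was 0.09 in LV and -0.08 in 4V, against 0.00 and 0.01 over all genes. Tnfrsf17, the plasma cell receptor BCMA, had at most 3 counts in any pool. Xbp1, a factor of secretory cells in general, had 1581 or more counts in every pool.

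The B cell genes differed in level. Ebf1, a transcription factor of B cells and of stromal cells, had 59 to 243 counts per pool. Pax5, a B cell transcription factor, had 0 counts in all 8 conditional pools. Ms4a1, which encodes CD20, had 0 counts in the 4 vehicle pools, 14 and 1 in Cre-Tat LV and 6 and 4 in Cre-Tat 4V. Of 17 genes listed, 0 of 6 tested were called in LV by edgeR or DESeq2, with 4 at an unadjusted p under 0.05 in edgeR and a list median of 1.25 on the log2 scale. In 4V 1 of 3 was called, Cd72, a B cell receptor inhibitor (14 and 13 against 72 and 49 counts, log2 fold change 1.51, adjusted p = 0.0171 in edgeR's quasi-likelihood test, 0.0977 in DESeq2). The Cd72 call was lost without Cre-Tat 4V pool A and without vehicle 4V pool A. Of the remaining constant genes, Ighe, Ighg3 and Iglc2 had 9 counts or fewer in any pool and none passed the filter.

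Of 25 T cell genes, 3 of 9 tested were higher in Cre-Tat-labelled LV, with a list median of 2.32 on the log2 scale. Bcl11b, a T cell transcription factor, went from 1 and 3 to 26 and 28 counts (log2 fold change 3.50). It passed the filter through the Cre-Tat pools alone, so its value is given as a description with no p-value. Il7r, the interleukin 7 receptor, went from 8 and 13 to 92 and 31 counts (log2 fold change 2.32). Vehicle LV pool A was under the filter's cutoff, so Il7r passed only with the Cre-Tat pools counted. Its value too is given with no p-value. DESeq2 called Bcl11b and Il7r. Without Cre-Tat LV pool A none of 10 tested was called, and without vehicle LV pool A only Cd2 of 18.

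In 4V 1 of 6 T cell genes was called, Il7r (2 and 11 against 36 and 50 counts, log2 fold change 2.03), with a list median of 0.96. Vehicle 4V pool A was under the filter's cutoff, so Il7r again passed only with the Cre-Tat pools counted and no p-value is given. Il7r was not called by DESeq2, nor without Cre-Tat 4V pool B or vehicle 4V pool A. Cd3d, a CD3 chain beside the members, had 4 and 2 counts against 19 and 4 in LV and 1 and 0 against 8 and 2 in 4V. Of 12 NK and cytotoxic genes 1 was tested in each ventricle and 0 were called by edgeR or DESeq2, with 0 at an unadjusted p under 0.05. Ncr1, an NK receptor, had 9 counts or fewer in every pool.

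Cxcl13, the chemokine that attracts B cells, was at 2.67 ± 1.91 CPM (SD, n = 2) in vehicle LV and 7.80 ± 2.44 in Cre-Tat LV, scaled within the comparison (log2 fold change 1.56, SE 0.38, adjusted p = 0.0405 in edgeR's quasi-likelihood test). It was not called there without Cre-Tat pool A or vehicle pool A. In 4V it went from 17 and 13 to 90 and 64 counts (1.71, SE 0.36, adjusted p = 0.00435 in the same edgeR test) and was called with each pool left out.

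Of 23 genes of lymphocyte recruitment and survival, 2 of 12 tested were higher in LV (Icam1 and Cxcl13) and 3 of 9 in 4V (Icam1, Cxcl13 and Tnfsf13, which encodes APRIL), with Vcam1 lower in 4V. Icam1, an adhesion molecule, had log2 fold changes of 0.71 (adjusted p = 0.0333) and 0.99 (adjusted p = 0.00312 in edgeR's quasi-likelihood test). In LV Icam1 was not called when either vehicle pool was left out, and in 4V Vcam1 was called only with all 4 pools or without Cre-Tat pool A. Tnfsf13 was not called in 4V without Cre-Tat pool A, without vehicle pool B or by DESeq2 (adjusted p = 0.0656). Among 11 genes of receptor signalling, 2 were higher in LV (Vav1 and Lcp2) and 2 in 4V (Plcg2 and Vav1), and 0 in LV without Cre-Tat pool A or vehicle pool A. Syk, a kinase of B cell receptors, was not called (adjusted p = 0.0969 in LV and 0.0865 in 4V, edgeR). Of 9 Fc receptor and antibody transport genes, 0 of 7 tested were called in LV by edgeR or DESeq2, with 3 at an unadjusted p under 0.05. In 4V 1 of 7 was called (Fcer1g, lost without vehicle pool A). Fcer1g (4 and 4 against 36 and 32 counts) passed the filter there through the Cre-Tat pools alone, so its call is given as a description. Fcgrt, the neonatal Fc receptor that carries IgG, had log2 differences of 0.03 in LV and -0.29 in 4V that were not called.

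Markers of other cells moved with the label, and their part in the members' values was not tested. Of 10 macrophage markers 3 were higher in LV and 6 in 4V. Their summed level was 69.4 to 78.3 CPM in vehicle LV against 111 to 138 in Cre-Tat LV, and 56.6 to 57.4 against 93.7 to 132 in 4V.

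The 7 red blood cell markers summed to 3 counts in Cre-Tat LV pool A, the pool highest in gamma counts, and to 201 in pool B. Their sums were 10 and 3 in vehicle LV, 10 and 5 in vehicle 4V and 16 and 39 in Cre-Tat 4V. The 5 neutrophil markers summed to 3 and 6 counts in Cre-Tat LV, and to 295 and 14 in Cre-Tat 4V, where gamma counts were also higher in pool A. In vehicle pools they summed to 2 and 1 in LV and 5 and 5 in 4V. The part of blood cells in the members' values was not tested. Bulk samples cannot tell more cells of a type from more RNA per cell.

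Over the 8 conditional pools, the genes whose log2 CPM was most like the mean of the 6 members that passed the filter were Oxct1, an enzyme of ketone body use (Pearson r = 0.988), Ctss, a lysosomal protease (0.984), Il18r1, an interleukin 18 receptor chain (0.984), Jchain (0.982) and Cd74, the MHC class II invariant chain (0.980). The points share label, ventricle and library, and the values describe these 8 pools.

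The constitutive model did not choose the members, and its comparisons with wildtype are tests. Both share the wildtype pools. Ighg1, Ighg2b and Ighg2c had 4 counts or fewer in each of the 6 pools. Ighm had 47 and 45 counts in wildtype, 37 and 76 in Otx2+/GFP and 56 and 80 in Otx2+/AA pools. It overlapped between wildtype and Otx2+/GFP, while both Otx2+/AA pools were above both wildtype pools. Its log2 fold changes were 0.21 (SE 0.37, adjusted p = 0.817) and 0.43 (SE 0.31, adjusted p = 0.794 in edgeR's quasi-likelihood test), and neither passed.

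Igkc was lower in the Otx2+/GFP pools, which were the lowest of this model. It had 32 and 45 counts in wildtype, 9 and 6 in Otx2+/GFP and 35 and 27 in Otx2+/AA pools. Against wildtype the log2 fold change was -2.43 (SE 0.46, adjusted p = 0.0255 in edgeR's quasi-likelihood test, lower in both pools), and DESeq2 gave -2.45 (adjusted p = 0.0222). The edgeR call was lost without Otx2+/GFP pool A (-2.74, adjusted p = 0.0557), without Otx2+/GFP pool B (-2.18, adjusted p = 0.0627) and with counts summed over transcripts (-2.43, adjusted p = 0.0613). For Otx2+/AA the value was -0.46 (SE 0.36, adjusted p = 0.815, edgeR), with overlap between groups.

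Igkc was thus 1 of 2 members tested and called in the Otx2+/GFP comparison, where 3.53% of all genes were called. In the Otx2+/AA comparison 0 of 2 members were called by edgeR or DESeq2, with 0 at an unadjusted p under 0.05 in edgeR, where 0.345% of all genes were called.

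**Figure D5:**
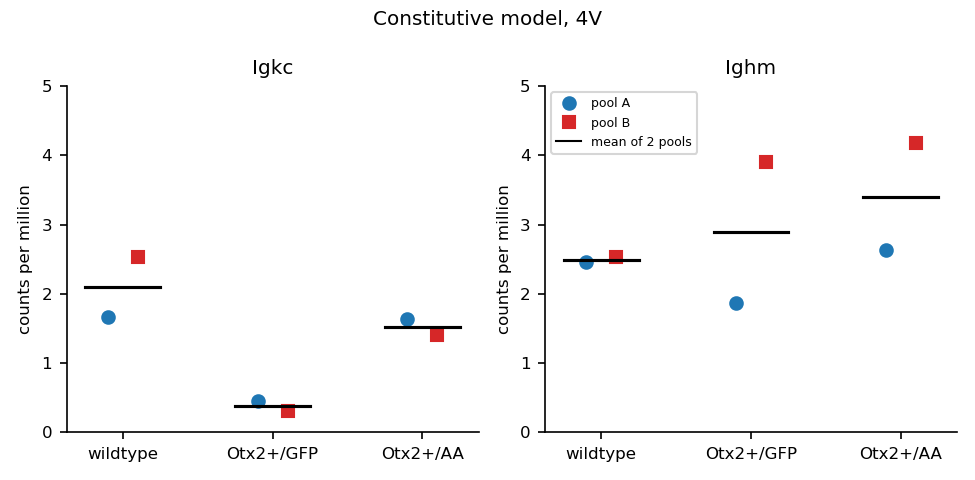
CPM of Igkc and Ighm in the 6 pools of the constitutive model, with pool A as circles, pool B as squares and the mean of the 2 pools as a line. Igkc is at 0.454 and 0.308 CPM in the Otx2+/GFP pools and at 1.41 to 2.53 CPM in the others, and Ighm overlaps between wildtype and Otx2+/GFP.

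The lymphocyte genes were near 0 in this model. Cd3g had 1 and 11 counts in wildtype, 3 and 8 in Otx2+/GFP and 3 and 7 in Otx2+/AA pools, all overlapping. Cd79a, Cd79b, Cd3e and Cd6 had 3 counts or fewer in every pool. Of the B cell, plasma cell, T cell, NK and receptor signalling lists, with 2 to 10 genes tested each, 0 genes were called in either comparison by edgeR or DESeq2. For Otx2+/GFP 0 genes of these lists had an unadjusted p under 0.05 in edgeR, and for Otx2+/AA 1 B cell, 2 plasma cell and 1 receptor signalling gene did. Alcam, the adhesion molecule bound by CD6, rose in Otx2+/GFP pools from 450 and 481 to 785 and 799 counts (log2 fold change 0.68, SE 0.13, adjusted p = 0.0264 in edgeR's quasi-likelihood test), a call lost without wildtype pool A. Macrophage markers summed to 90.2 to 92.7 CPM in wildtype, 109 to 117 in Otx2+/GFP and 124 to 125 in Otx2+/AA pools. Of these 10 markers, 1 was called higher in Otx2+/GFP (Mrc1, a call lost with any single pool left out) and 0 in Otx2+/AA. Their part in the value of Igkc was not tested.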

How the data were processed

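The authors deposited raw counts of 50-base reads on each Ensembl transcript (mm10), not normalized. The submitters' processing notes name bcl2fastq 1.8.4, Bowtie 0.12.9, HTSeq 0.5.3 and DESeq 1.8.3. Labels describe ribosomal RNA depletion, the methods PolyA+ selection. In the conditional model, 14 of 16 files carry another library number than the sample they are attached to. They were joined by library number, since the 8 run pairs so formed differed by no more than sampling noise (chi-square 1.00 to 1.03 times its degrees of freedom, against 13.2 to 20.5 as attached), and runs were summed. This shows which files are runs of one pool, but not which group a pool belongs to. The group was taken from the label with that library number and was not tested. Of 95533 transcripts, 82807 (89.5% of counts) matched GENCODE vM21. The transcript with the highest total stood for its gene. The plan had assumed counts per gene.

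Each comparison was fitted on its own 4 pools with edgeR 4.0.16 (R 4.3.3; filterByExpr, TMM, quasi-likelihood test, Benjamini-Hochberg over all genes tested, threshold 0.05). CPM are scaled over all 14 pools unless stated. With 2 pools per group, exact permutation cannot give a p below 0.333, and p-values measure the spread between pools. Alternatives were DESeq2 1.42.0, its size factors, other filters, the pool letter as block, all groups of one run fitted jointly, sums over transcripts, files as attached and each pool left out. The members and lists were chosen with earlier results of these data known. Named were the members, the first gene of each list, the 3 called genes of a list with the smallest adjusted p, and the 5 genes most alike, and further genes were named after their values were seen. Some genes that this rule names are not reported here. The test was tried on simulated counts with gene-wise dispersions first, where false calls exceeded the threshold. Dispersions that follow the trend were added after that was seen, and with them false calls stayed under it. Adjusted p-values may therefore be too small where dispersions vary by gene. Python 3.11.15 (pandas 2.3.3; NumPy 2.4.6; SciPy 1.17.1; matplotlib 3.10.9) made tables and figures.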

Additional observations from a re-analysis of the deposited data

Results flagged for a closer look

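Igkc moved in opposite directions in 4V ChP of the models. Both pools labelled Cre-Tat were above both pools labelled vehicle (log2 fold change 3.62), and both Otx2+/GFP pools were below both wildtype pools (log2 fold change -2.43). The difference between these effects was 6.03 on the log2 scale (SE 1.13, edgeR fit over 8 pools). It is given as a description with no p, because the first comparison chose the gene, and the model cannot be told apart from strain label and sequencing run.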

How the results depend on the processing

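Pools of different labels hold different mice, and whether LV and 4V pools of one letter share mice is not given in the sources used here. The correlation of deviations between pools of one letter was -0.13 in LV, 0.15 in 4V, 0.36 for Otx2+/GFP, 0.08 for Otx2+/AA and 0.07 between vehicle ventricles. With the replicate block, 621, 3117, 2522, 547 and 2277 genes were called in these comparisons, against 486, 1554, 514, 50 and 1090 without it, with 7, 5, 1, 0 and 1 members against 7, 4, 1, 0 and 0, and 2 and 243 genes in the interactions of label with ventricle and with model, against 1 and 247. With the letters crossed in LV, chosen after seeing the data, 995 genes were called.

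With the files as attached, 6705, 8741 and 4715 genes were called in LV, 4V and between ventricles, with 5 members in the last. Without the filter there were 872 genes in LV, 390 for Otx2+/AA and 1838 between ventricles, with 4 members there, and with a mean count above 10, 1 member. All groups in 1 fit gave 18 genes for Otx2+/AA and 715 between ventricles, and 4 members in LV and 2 in 4V. DESeq2 gave 115 genes for Otx2+/AA, 2 members in LV, and 6 and 372 genes in the interactions. Sums over transcripts gave 22 genes for Otx2+/AA and 0 members for Otx2+/GFP. With each pool left out, genes called ranged from 325 to 736 in LV, 890 to 1666 in 4V, 402 to 880 for Otx2+/GFP, 35 to 374 for Otx2+/AA and 408 to 1969 between ventricles, and members from 2 to 6, 2 to 5, 0 to 1, 0 to 0 and 0 to 4. With the files as attached, the log2 fold change of Igkc was 1.32 in LV and 0.76 in 4V, and that of Ighg1 0.93 and 0.82, so the size of these values rests on the join by library number. Over all alternatives, 185 values of single members kept their call or, where only described, moved by less than the spread between pools, 27 described values moved by more and 3 lost the call of Igkc for Otx2+/GFP. No called value changed sign. Ighm for Otx2+/GFP, not called, ranged from -0.41 to 0.64. Depth limits Cd79a, Cd79b, Cd3e and Cd6. Their counts were too low to compare outside LV, and in LV only Cd6 of these passed the low-count filter.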
